A study of Mus musculus with 6 samples.

Results

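The genes described here encode the phagocyte NADPH oxidase, the superoxide dismutases and catalase, which make and remove superoxide and hydrogen peroxide. They are 9 of the 57180 gene identifiers in the deposited table, and were taken by symbol: Cybb, Cyba, Ncf1, Ncf4, Rac2, Sod1, Sod2, Sod3 and Cat. RNA was sequenced from wild-type mouse bone marrow-derived macrophages (BMMs) kept for 5 days under osteoclast differentiation conditions, 3 libraries with Visomitin and 3 control libraries without it, called Visomitin 1 to 3 and control 1 to 3. Both groups therefore carry the osteoclast-inducing culture, and the labels name no other difference between them than the compound. Visomitin (SkQ1) is an antioxidant of the plastoquinone kind that a positively charged group carries into mitochondria; the sources used here give no dose. Nothing in the labels says whether the libraries came from separate mice or cultures. The p-values therefore set each group difference only against the spread among these libraries, and that spread may be technical. Levels are in TPM, which correct for transcript length and sum to the same total in every library, so that genes can be compared with each other; they hold no sequencing depth.

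The phagocyte oxidase passes electrons from NADPH across a membrane to oxygen and so makes superoxide. Its membrane part is a pair of proteins, the catalytic NOX2 (Cybb) and its partner p22phox (Cyba), which are switched on when cytosolic subunits, among them those of Ncf1 and Ncf4, and a Rac GTPase join them. Superoxide dismutases turn superoxide into hydrogen peroxide in the cytosol (Sod1), the mitochondrial matrix (Sod2) and outside the cell (Sod3), and catalase (Cat) breaks peroxide down, mainly in peroxisomes. Reactive oxygen species are known as second messengers of RANKL, the cytokine that drives macrophages to become osteoclasts.

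Rac2, the Rac GTPase of blood cells, and Sod2, the manganese dismutase of mitochondria, were lower with Visomitin, 1.64-fold and 1.54-fold. The membrane pair Cybb and Cyba, the cytosolic subunits Ncf1 and Ncf4, Sod1 and Cat did not pass the test. Sod3 was listed below 1 TPM in all 6 libraries and was not tested. Of the 8 tested members, 2 fell, 0 rose and the other 6 missed the threshold (limma with Benjamini-Hochberg adjustment over 11753 genes, adjusted p under 0.05). Across all genes tested 7.10% passed, 5.03% lower and 2.08% higher, and 2 of 8 is a small count to read against that background. An unadjusted p under 0.05 was reached by 3 of the 8 members, and by 24.4% of all genes tested. Of the genes that passed, 244 were higher and 591 lower, a split that was 481 to 689 with median-ratio scaling and 559 to 651 with quantile normalization. The median log2 fold change was -0.01 over the 8 tested members and -0.03 over all genes tested.

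**Figure D1:**
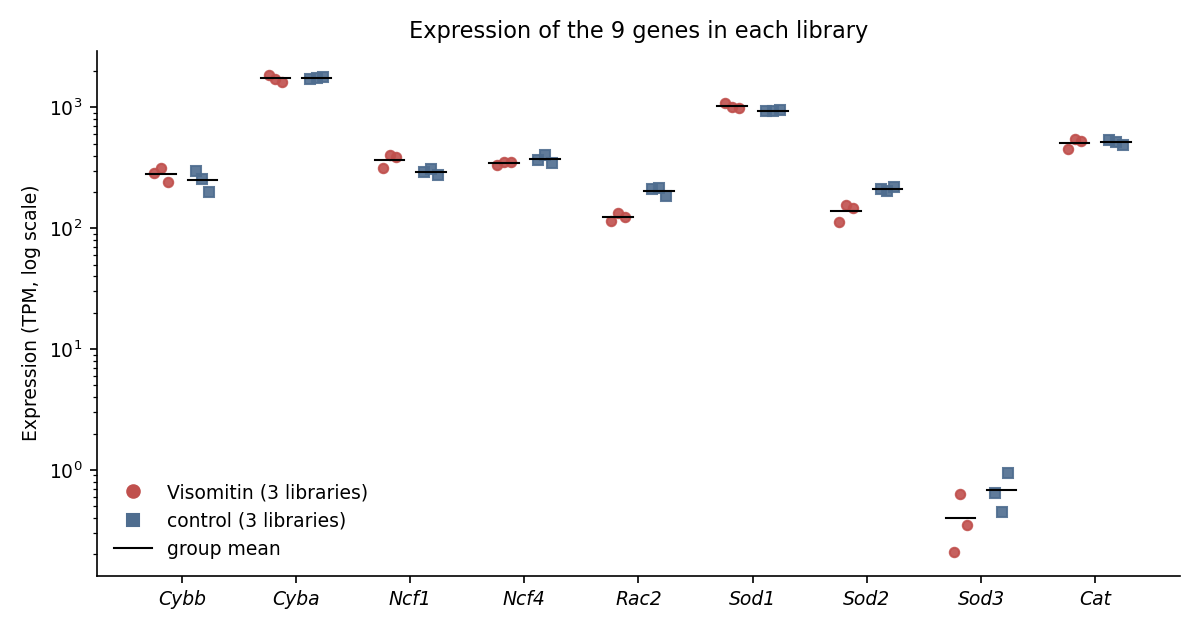
Expression of the 9 genes in TPM (log axis) in each library, with Visomitin libraries as red circles on the left of each pair, control libraries as blue squares on the right, and group means as bars (n = 3 each). Rac2 and Sod2 are lower in all 3 Visomitin libraries than in any control library, and Sod3 lies below 1 TPM throughout.

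Together the 9 genes took between 4405 and 4633 TPM in Visomitin libraries and between 4434 and 4598 TPM in control libraries. Cyba was the most abundant, with a mean of 1740 TPM with Visomitin and 1749 TPM in control. It was followed by Sod1, with means of 1027 and 939 TPM in Visomitin and control libraries, and by Cat, with 511 and 516 TPM. In Visomitin libraries the next were Ncf1, Ncf4 and Cybb at means of 367, 347 and 282 TPM, then Sod2 at 139 TPM and Rac2 at 125 TPM. In control libraries Ncf4 at 373 TPM stood above Ncf1 at 292 TPM and Cybb at 251 TPM, with Sod2 at 213 TPM and Rac2 at 205 TPM below them. The ranges of Ncf1 and Ncf4, of Ncf1 and Cybb, and of Sod2 and Rac2 overlapped in Visomitin libraries. In control libraries those of Ncf1 and Cybb, of Cybb and Sod2, of Cybb and Rac2, and of Sod2 and Rac2 overlapped. All 8 tested members stood above the 93rd percentile of mean TPM among tested genes, from 93.2 for Rac2 to 99.3 for Cyba.

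Rac2 (ENSMUSG00000033220) was listed at 115, 134 and 125 TPM in Visomitin 1, 2 and 3, against 213, 216 and 186 TPM in control 1, 2 and 3. The highest Visomitin library lay well below the lowest control library. Its log2 fold change, Visomitin minus control on the log2(TPM + 1) scale as for all fold changes here, was -0.71 (SE 0.09, limma adjusted p = 0.0041), with a 95% interval of -0.93 to -0.50. That difference stood at percentile 3.84 among all tested genes, counted from the most lowered. In bulk RNA, fewer cells of a type and less RNA per cell cannot be told apart.

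Rac1, the Rac GTPase found in nearly all cells, is the other Rac that can serve the oxidase. It was listed at 98.5, 121 and 146 TPM in Visomitin 1, 2 and 3, against 111, 99.7 and 103 TPM in control libraries, and the groups overlapped (log2 fold change 0.20, 95% interval -0.11 to 0.51, limma adjusted p = 0.41). The ratio of Rac2 to Rac1 TPM was 1.17, 1.11 and 0.855 in Visomitin libraries, against 1.92, 2.16 and 1.80 in control libraries. Rac2 was thus the more abundant of the pair in every control library, and near or below Rac1 in the Visomitin libraries. This ratio was chosen after the values were seen and has no test.

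Sod2 (ENSMUSG00000006818) was listed at 112, 156 and 148 TPM in Visomitin 1, 2 and 3, against 213, 205 and 220 TPM in control 1, 2 and 3. All Visomitin libraries were below all control libraries, with Visomitin 1 the lowest. The log2 fold change was -0.63 (SE 0.13, limma adjusted p = 0.023), with a 95% interval of -0.91 to -0.34. The call was lost when control 1, control 2 or control 3 was left out (adjusted p = 0.086, 0.055 and 0.086), while the log2 fold change stayed between -0.72 and -0.48 whichever library was left out. It was also lost with no filter on low values (adjusted p = 0.084) and without the trend in the variance (adjusted p = 0.0504), whereas Rac2 passed under each of the 16 alternatives.

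Sod1 (ENSMUSG00000022982), the copper and zinc enzyme of the cytosol, was listed at 1090, 1002 and 989 TPM in Visomitin libraries, against 939, 931 and 949 TPM in control libraries. The groups did not overlap, but the difference was small (log2 fold change 0.13, SE 0.07, 95% interval -0.04 to 0.29) and did not pass (limma adjusted p = 0.32). Its control libraries lay within a coefficient of variation of 0.954%, against 5.38% in Visomitin libraries. The ratio of Sod2 to Sod1 TPM was 0.103, 0.156 and 0.1498 in Visomitin libraries, against 0.227, 0.220 and 0.232 in control libraries, with no overlap. The Sod1 transcript outnumbered that of Sod2 by 6.41 to 9.74 times with Visomitin, against 4.30 to 4.54 times in control. The mean log2 ratio differed by -0.76 (exact two-sided permutation p = 0.1, the smallest that 3 against 3 libraries allow; 0.25 adjusted over the 5 ratios tested).

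The promoters of these dismutase genes are shown because Sod2 fell and its cytosolic counterpart did not pass. They are the 250 bases before the transcription start, from RefSeq (GRCm38.p6), whose promoters were matched for 6 of the 9 genes, all but Ncf4, Rac2 and Sod3. The Sod2 window is chr17:13007589-13007838 on the plus strand and the Sod1 window is chr16:90220512-90220761 on the plus strand. Capitals mark GC boxes, GGGCGG on either strand, the recognition sequence of SP family factors.
Sod2: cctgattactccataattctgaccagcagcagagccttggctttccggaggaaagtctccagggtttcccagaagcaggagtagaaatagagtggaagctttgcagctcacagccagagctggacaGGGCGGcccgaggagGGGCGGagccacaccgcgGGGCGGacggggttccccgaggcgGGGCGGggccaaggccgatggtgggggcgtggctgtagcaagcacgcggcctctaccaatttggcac
Sod1: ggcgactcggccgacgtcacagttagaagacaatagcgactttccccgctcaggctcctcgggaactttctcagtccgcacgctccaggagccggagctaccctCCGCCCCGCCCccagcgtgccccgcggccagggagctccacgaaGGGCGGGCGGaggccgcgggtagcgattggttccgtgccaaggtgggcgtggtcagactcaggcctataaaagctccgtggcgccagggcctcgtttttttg
Each window holds 4 matches to GGGCGG, those of Sod1 in overlapping pairs, where 32.7% of 32851 promoter windows of the same length hold at least 1. The windows have a GC content of 63.6% for Sod2 and 66.4% for Sod1, against a median of 52.4% over all promoters. The Sod1 window has a match to TATAAA 37 bases before the start, and the Sod2 window has none; 12.4% of all windows hold that match. The STAT motif TTCNNNGAA, searched because the study's title names STAT3, matched once in the Sod2 window, from 185 bases before the start, and not in that of Sod1; 7.02% of windows hold it. The same motif was found in the promoter window of Ncf1, and not in those of Cybb, Cyba or Cat. The core of the antioxidant response element, TGACNNNGC, matched in the Sod1 window alone among the 6 (10.2% of all windows). GAGGAA, the core bound by PU.1, matched in the Sod2 and Cat windows (23.3% of all windows). CCAAT matched in the Cybb, Sod1 and Sod2 windows and at 4 places in that of Cat (33.8% of all windows). All were searched on both strands. The GAGGAA and CCAAT matches of Cat share 1 base, and a match is a description of the letters only.

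Sod3 (ENSMUSG00000072941), the secreted dismutase, was listed at 0.21, 0.63 and 0.35 TPM in Visomitin libraries, against 0.65, 0.45 and 0.95 TPM in control libraries. The groups overlapped, and these are the lowest values of the 9 genes. The mean log2(TPM + 1) differed by -0.27 with no test in the fit, because no library reached 1 TPM. Sod1 exceeded Sod3 by 1590 to 5193 times in Visomitin libraries and by 999 to 2068 times in control libraries, with overlap (exact permutation p = 0.2, 0.33 adjusted over the 5 ratios). The highest Sod3 value was that of control 3. Summed stromal markers, 10 genes such as Col1a1 and Pdgfrb, ran from 79.7 to 171 TPM in Visomitin libraries and from 118 to 337 TPM in control libraries, the highest also in control 3; their part in the Sod3 values was not tested.

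Cybb (ENSMUSG00000015340), the catalytic subunit NOX2, was listed at 289, 316 and 240 TPM in Visomitin libraries, against 299, 256 and 199 TPM in control libraries. The groups overlapped, and control 3 was the lowest library. Among the tested members its spread between control libraries was the widest, with a coefficient of variation of 20.1%, where the median over 1334 tested genes with a mean of at least 100 TPM was 5.21%. The log2 fold change was 0.17 (SE 0.16, limma adjusted p = 0.55), and its 95% interval of -0.19 to 0.54 leaves room for changes of up to 1.45-fold higher. It was 0.02 without control 3 and 0.31 without control 1, and passed in neither.

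Cyba (ENSMUSG00000006519), the partner that stabilises NOX2 in the membrane, was listed at 1869, 1720 and 1632 TPM in Visomitin libraries, against 1728, 1751 and 1769 TPM in control libraries. The 3 control libraries lay inside the Visomitin range. The log2 fold change was -0.01 (SE 0.08, 95% interval -0.18 to 0.17, limma adjusted p = 0.95), and it was 0.032 after median-ratio scaling and 0.035 without Visomitin 3. Cyba exceeded Cybb by 5.45 to 6.80 times in Visomitin libraries and by 5.77 to 8.91 times in control libraries. The Cybb to Cyba ratio overlapped between the groups (exact permutation p = 0.4, 0.4 adjusted over the 5 ratios).

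Ncf1 (ENSMUSG00000015950) encodes p47phox, the organiser that brings the other cytosolic subunits to the membrane. It was listed at 313, 401 and 387 TPM in Visomitin libraries, against 294, 307 and 274 TPM in control libraries. All Visomitin libraries were above all control libraries, Visomitin 1 by the smallest margin. The log2 fold change was 0.32 (SE 0.11, 95% interval 0.08 to 0.57), and it did not pass (unadjusted p = 0.015, limma adjusted p = 0.11). It passed without Visomitin 1 (0.44, adjusted p = 0.016), after median-ratio scaling between libraries (0.37, adjusted p = 0.035) and with array weights, which let libraries count unequally (0.42, adjusted p = 0.0048). Over all 16 alternatives its adjusted p ran from 0.0048 to 0.30.

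Ncf4 (ENSMUSG00000071715) encodes p40phox, a subunit that binds a membrane lipid of phagosomes. It was listed at 332, 356 and 354 TPM in Visomitin libraries, against 370, 404 and 346 TPM in control libraries. The groups overlapped through control 3 (log2 fold change -0.10, SE 0.08, 95% interval -0.29 to 0.09, limma adjusted p = 0.50). The ratio of Ncf1 to Ncf4 was 0.942, 1.13 and 1.09 in Visomitin libraries, against 0.796, 0.758 and 0.791 in control libraries. The groups did not overlap in this ratio, and the mean log2 ratio differed by 0.43 (exact two-sided permutation p = 0.1, 0.25 adjusted over the 5 ratios).

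Cat (ENSMUSG00000027187) was listed at 455, 548 and 529 TPM in Visomitin libraries, against 541, 517 and 491 TPM in control libraries. Visomitin 1 was the lowest library and Visomitin 2 the highest, so the groups overlapped. The log2 fold change was -0.02 (SE 0.09, 95% interval -0.23 to 0.19, limma adjusted p = 0.93), and its sign turned under median-ratio scaling (0.023), quantile normalization (0.024), array weights (0.053), without control 1 (0.015) and without Visomitin 1 (0.062). The ratio of Cat to Sod1 was 0.417, 0.547 and 0.535 in Visomitin libraries, against 0.576, 0.555 and 0.517 in control libraries, which overlapped (exact permutation p = 0.4, 0.4 adjusted over the 5 ratios).

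**Figure D2:**
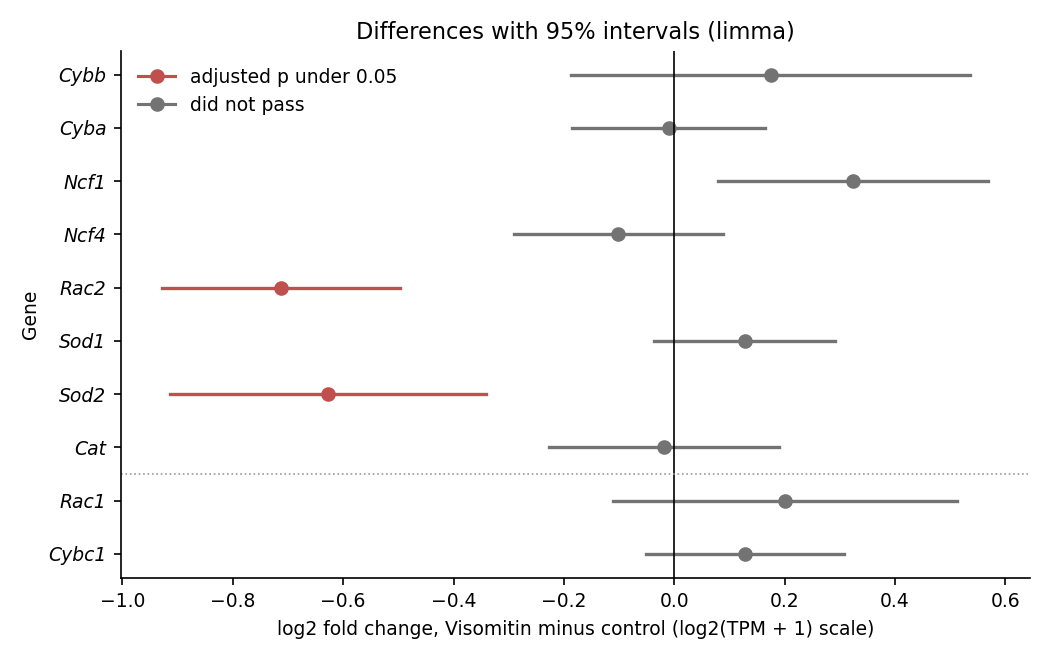
Log2 fold change, Visomitin minus control on the log2(TPM + 1) scale, with 95% intervals from limma (n = 3 each) for the 8 tested members above the dotted line, and below it for Rac1 and Cybc1. The intervals of Rac2 (-0.93 to -0.50) and Sod2 (-0.91 to -0.34) lie below 0, that of Ncf1 (0.08 to 0.57) lies above 0 without passing after adjustment, and the others span 0.

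**Figure D3:**
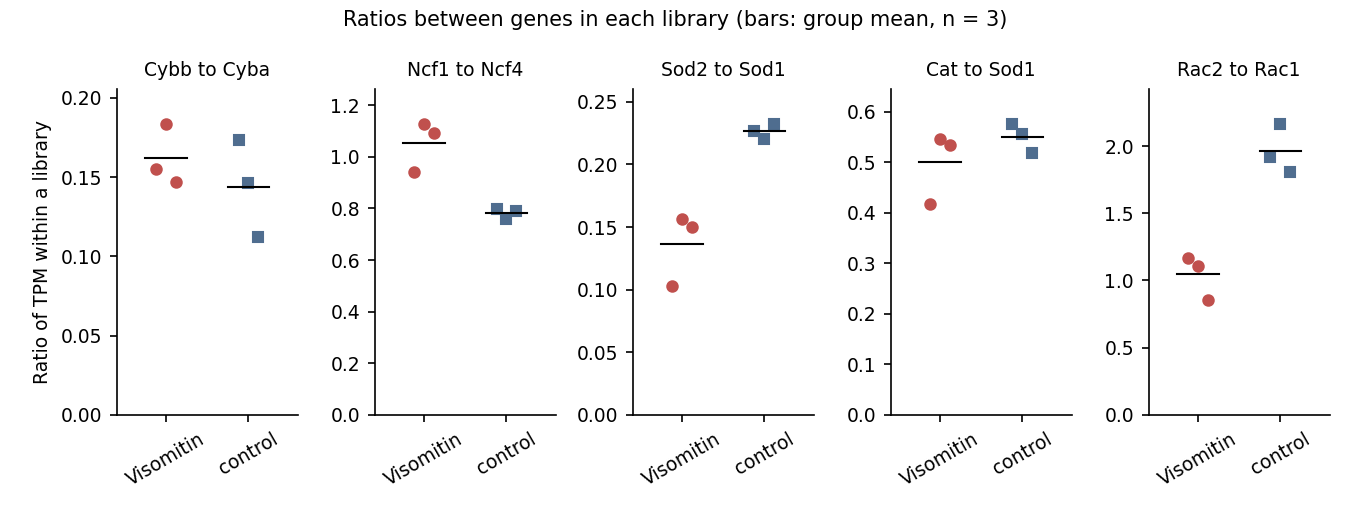
Ratio of the TPM of 2 genes within each library, for 5 gene pairs, with Visomitin libraries as red circles and control libraries as blue squares, bars at the group means (n = 3 each) and axes from 0. The groups do not overlap for Ncf1 to Ncf4, Sod2 to Sod1 and Rac2 to Rac1, and overlap for Cybb to Cyba and Cat to Sod1. The Rac2 to Rac1 pair was chosen after the values were seen and has no test. Sod3 to Sod1, which was tested and overlaps, is not drawn.

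**Figure D4:**
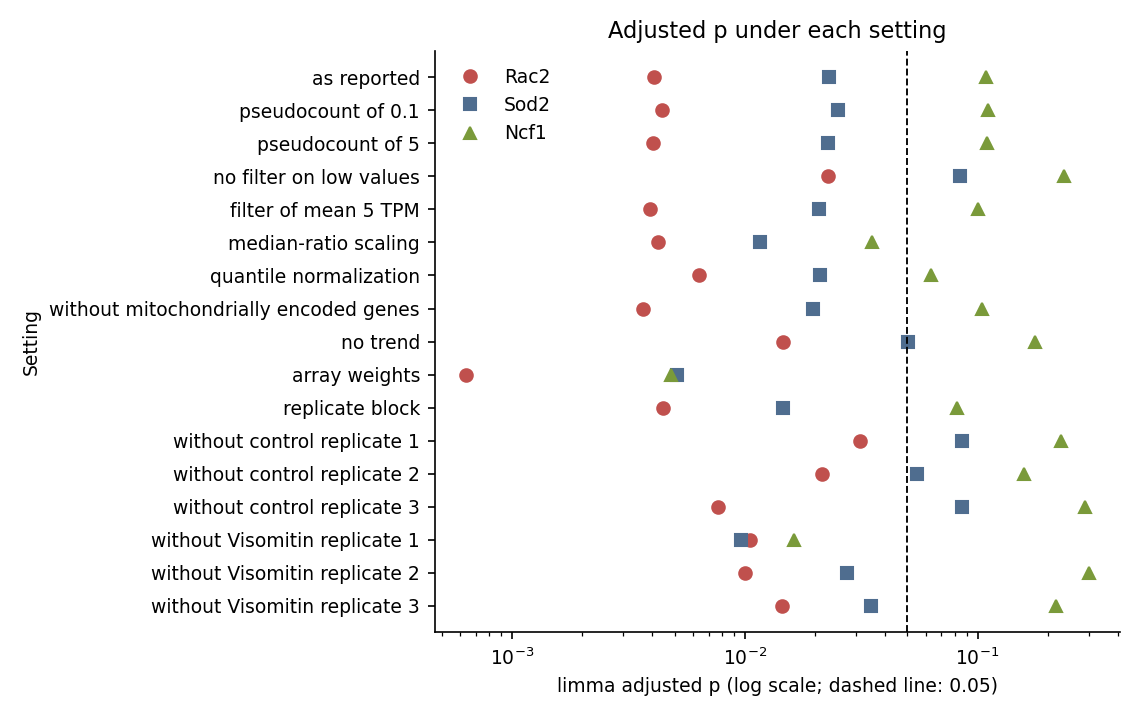
Adjusted p from limma (log axis, dashed line at 0.05) for Rac2, Sod2 and Ncf1 as reported and under 16 alternative settings. Rac2 stays below 0.05 in every setting, Sod2 crosses it in 5, and Ncf1 falls below it in 3.

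Of the 8 tested members, the group ranges of 4 did not overlap (Rac2, Sod2, Sod1 and Ncf1), where 30.4% of all tested genes had ranges that did not. Visomitin 1 was the lowest Visomitin library for Ncf1, Ncf4, Rac2, Sod2 and Cat, and the highest for Cyba and Sod1. Its median-ratio scaling factor was 0.911, against 1.01 and 1.04 in Visomitin 2 and 3 and 1.00 to 1.03 in control libraries. The coefficient of variation of Sod2 was 17.0% in Visomitin libraries, against 3.65% in control libraries, where genes of at least 100 TPM had medians of 9.30% and 5.21%.

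Further oxidase genes gave no calls. In a list of 11 further subunits, partners and paralogs, 2 were tested, 0 rose and 0 fell (0 with an unadjusted limma p under 0.05). They were Rac1, described above, and Cybc1. Cybc1, a chaperone that the membrane pair needs, was listed at 66.3, 64.3 and 66.6 TPM in Visomitin libraries, against 62.3, 58.4 and 59.5 TPM in control libraries (0.13, adjusted p = 0.36), without overlap. The other 9, among them the NOX paralogs Nox1, Nox3 and Nox4 and the dual oxidases Duox1 and Duox2, stayed under 1 TPM in every library, and 4 were listed at 0 in all. Of the NOX and dual oxidase genes listed, Cybb was the only one above 1 TPM in any library.

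Of 17 genes that activate the oxidase, 16 were tested, 0 rose and 0 fell, where 7.10% of all genes tested passed. An unadjusted limma p under 0.05 was reached by 3 of the 16, and by 24.4% of all genes tested. The 3 were Vav2, an exchange factor for Rac (0.36, adjusted p = 0.098), and the protein kinase C genes Prkcd (0.30, adjusted p = 0.11) and Prkcb (0.31, adjusted p = 0.13), whose proteins phosphorylate p47phox. Prkcd was listed at 341, 407 and 371 TPM in Visomitin libraries, against 312, 326 and 274 TPM in control libraries, without overlap. Vav2 passed with median-ratio scaling, quantile normalization, array weights or Visomitin 1 left out, and Prkcd and Prkcb with array weights. Hvcn1, the proton channel that balances the charge the oxidase moves, did not pass (-0.16, adjusted p = 0.29).

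Among 12 transcription factors known for genes of this kind, Irf8 rose, 0 fell and 11 did not pass, with a median of 0.11. That count, 1 of 12, is near the 7.10% of all genes tested that passed. Irf8, a myeloid factor that activates phagocyte oxidase genes and restrains osteoclast formation, was listed at 86.7, 94.8 and 84.98 TPM in Visomitin libraries, against 62.0, 60.8 and 49.97 TPM in control libraries. The log2 fold change was 0.62 (SE 0.11, limma adjusted p = 0.012), and it missed the threshold only without Visomitin 2 (adjusted p = 0.056) among the 16 alternatives. Spi1, which encodes PU.1, did not pass (-0.17, adjusted p = 0.28). Cebpb was listed at 35.5, 83.6 and 133 TPM in Visomitin libraries, against 37.0, 47.4 and 43.6 TPM in control libraries, and the Visomitin libraries alone spanned that whole range (0.78, adjusted p = 0.27). Cebpb passed with array weights and without Visomitin 1. Foxo3, a factor known to act on Sod2 and Cat, did not pass (0.21, adjusted p = 0.37).

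Peroxide removers other than catalase gave 1 call in 11 tested genes, with 0 higher, 1 lower and a median of 0.02. Of all genes tested 7.10% passed. An unadjusted limma p under 0.05 was reached by 6 of the 11, in both directions, and by 24.4% of all genes tested. Prdx3, the peroxiredoxin of the mitochondrial matrix, was listed at 74.1, 67.9 and 74.6 TPM in Visomitin libraries, against 99.1, 100.2 and 94.6 TPM in control libraries. It fell by 0.44 on the log2 scale (SE 0.08, limma adjusted p = 0.018), and lost the call without control 1, control 2, control 3 or Visomitin 2 (adjusted p of 0.051 to 0.082). Prdx4, the peroxiredoxin of the endoplasmic reticulum, had values of 93.6 to 94.9 TPM in Visomitin libraries and 79.9 to 83.0 TPM in control libraries, and did not pass (0.21, adjusted p = 0.13). The low-abundance Gpx7 (-0.92, adjusted p = 0.064) and Gpx8 (-0.71, adjusted p = 0.12) did not pass either. Gpx8 passed without control 2, and Gpx7, Prdx1 and Prdx4 with array weights.

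Of 18 oxidases that release peroxide, 10 were tested, 0 rose, 1 fell and 9 did not pass (median 0.04), where 7.10% of all genes tested passed. Maoa, the monoamine oxidase of the outer mitochondrial membrane, was listed at 16.5, 18.2 and 15.5 TPM in Visomitin libraries, against 23.4, 26.2 and 23.9 TPM in control libraries (-0.53, SE 0.10, limma adjusted p = 0.023). It lost the call when any library other than Visomitin 1 was left out (adjusted p of 0.050 to 0.087), and with no filter on low values (adjusted p = 0.052). Il4i1, a secreted amino acid oxidase, was listed at 17.2, 14.6 and 7.39 TPM in Visomitin libraries, against 6.42, 8.09 and 3.37 TPM in control libraries, with overlap (1.00, adjusted p = 0.12). It passed with array weights, with the library number as a replicate block, and without Visomitin 3. The acyl-CoA oxidase gene Acox3 (0.35, adjusted p = 0.14) and the polyamine oxidase gene Paox (0.30, adjusted p = 0.19) did not pass. Acox3 passed with array weights.

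Genes of the peroxisome, where catalase works, and of copper and manganese handling gave no calls. These lists are short to read against the 7.10% of all genes tested that passed. Of 18 genes of peroxisome assembly and import, all tested, 0 rose and 0 fell, 3 had an unadjusted limma p under 0.05 and the median was 0.02. Pex10 (-0.47, adjusted p = 0.12), a ubiquitin ligase of the import machinery, had the lowest p of that list. Of 13 genes of copper and manganese handling, 11 were tested, 0 rose and 0 fell, and 2 had an unadjusted p under 0.05. Such an unadjusted limma p was reached by 24.4% of all genes tested. Slc11a2, a transporter of iron and manganese, was listed at 31.9, 47.8 and 43.6 TPM in Visomitin libraries, against 57.2, 55.2 and 60.7 TPM in control libraries (-0.50, adjusted p = 0.079), and it passed after median-ratio scaling and quantile normalization. Sco1, a copper chaperone of mitochondria, did not pass (-0.34, adjusted p = 0.16).

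**Figure D5:**
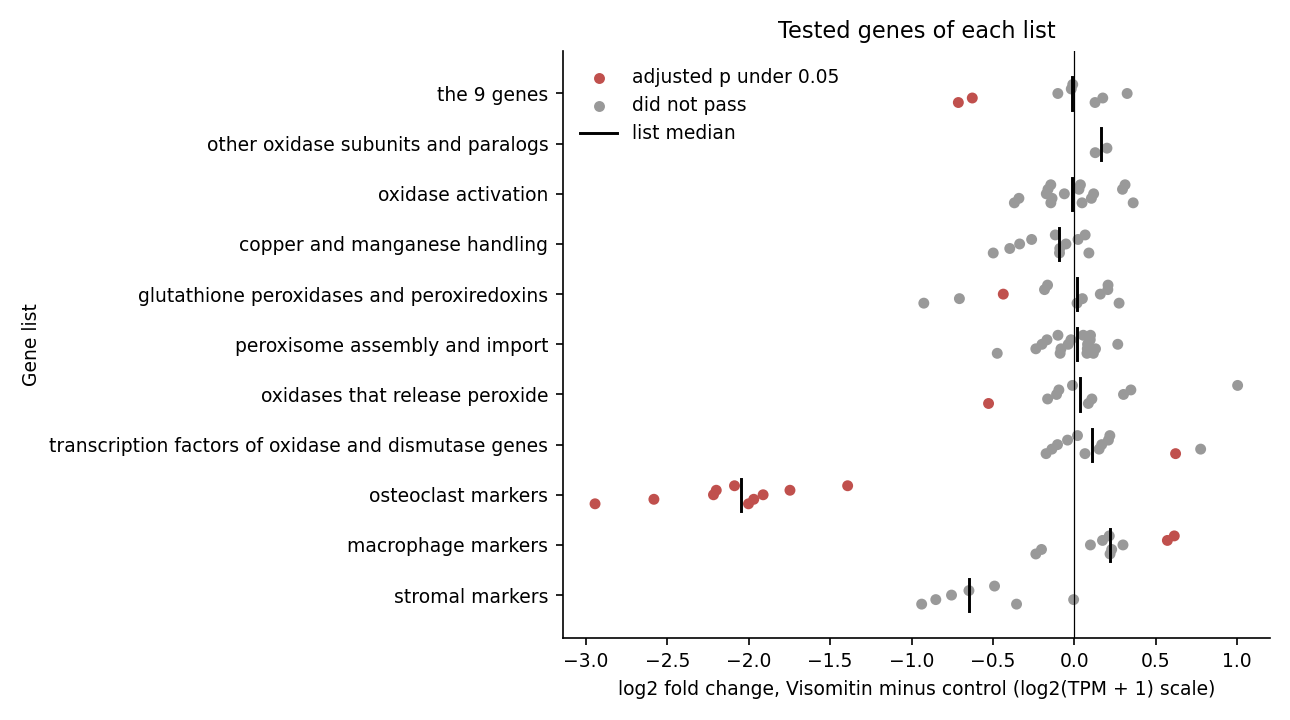
Log2 fold change, Visomitin minus control on the log2(TPM + 1) scale, of each tested gene in the 9 genes, in 7 related lists and in 3 marker lists, with red points for an adjusted p under 0.05, grey points for the rest and a bar at each list's median. Outside the osteoclast and macrophage markers, the red points are Rac2, Sod2, Prdx3 and Maoa on the lower side and Irf8 on the higher side.

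The cells were checked against marker lists. All 10 osteoclast markers fell with Visomitin (limma adjusted p under 0.05), with a summed level of 2938 to 3531 TPM against 11171 to 12121 TPM in control libraries and a median log2 fold change of -2.04. Of 10 macrophage markers 2 rose, Mrc1 (0.61, limma adjusted p = 0.012) and Mertk (0.57, adjusted p = 0.022), and 0 fell. Cd68 (-0.20, adjusted p = 0.16) and Fcgr1 (-0.24, adjusted p = 0.48) were lower without passing. The sums ran from 43030 to 48304 TPM with Visomitin and from 37388 to 41570 TPM in control. Most of each sum was Lyz2, at 38065 to 42065 TPM with Visomitin and 32021 to 36284 TPM in control. Lyz2 did not pass (0.21, adjusted p = 0.18). The median of the macrophage list was 0.22. Osteoclast markers thus moved in the same direction as Rac2 and Sod2, by more than either, and their part in those results was not tested. Neutrophils are also rich in this oxidase. Ly6g, Mpo, Elane and 4 other markers of 10 were listed at 0 in all libraries, and the list summed to 8.96 to 15.4 TPM with Visomitin and 11.7 to 19.5 TPM in control, nearly all of it S100a8. Of the 7 tested stromal markers 0 passed, with a median of -0.65. Markers of endothelial, dendritic, B, T, erythroid and mast cells gave 0 calls among 2 tested genes, and no list of these exceeded 2.24 TPM in sum.

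The genes most like each member over the 6 libraries, by Pearson's r of log2(TPM + 1), were read out as a description, since group and library differences both enter r. They are the 2 with the highest r among the tested genes with a symbol. With so many genes and 6 libraries, that choice alone gives a high r, also for members that hardly differed. No relation between the genes was tested. For Rac2 they were Itga2 (r = 0.997), an integrin subunit, and Kidins220 (r = 0.997), a scaffold protein of neurotrophin signalling. Itga2 was at 0.53 to 0.75 TPM with Visomitin against 1.93 to 2.65 TPM in control. It stayed under 1 TPM in every Visomitin library, so it entered the test only through its control values, which are low too. Kidins220 was at 38.8 to 45.0 TPM with Visomitin against 55.4 to 63.6 TPM in control. For Sod2 they were Plin2 (r = 0.996), which coats lipid droplets, and Mfn2 (r = 0.996), which fuses mitochondria. Those nearest Sod1 were the ribosomal protein genes Rpl28 (r = 0.991) and Rps28 (r = 0.990). For Ncf1 they were Arl4c (r = 0.998) and Mtmr3 (r = 0.992), for Cybb Dnajb6 (r = 0.996) and Ephx1 (r = 0.995), and for Cyba S100a11 (r = 0.980) and Krcc1 (r = 0.973). For Ncf4 they were Sptlc2 (r = 0.987) and Cryl1 (r = 0.986), and for Cat Taok3 (r = 0.994) and Tepsin (r = 0.993).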

How the data were processed

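Expression was taken from 1 table of 6 libraries. Per the labels' protocols, TRIzol-extracted RNA was cleared of DNA with DNase I before stranded mRNA library preparation. The submitters' processing notes name fastp, HISAT2 and StringTie, with no version; for genome build, annotation and counting, the labels and file say nothing. The deposited values are TPM, computed by the authors per gene and library. Each library sums to the same total, and depth is unknown, so the number of libraries limits the precision.

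Identifiers were matched to symbols by a reference table (51884 of 57180), with RefSeq synonyms for Ero1a and Ero1b. The 11753 genes that reached 1 TPM in 3 or more libraries were transformed to log2(TPM + 1) and fitted with limma 3.58.1 under R 4.3.3, with a variance trend and no term besides group (statmod 1.5.0 is loaded for array weights). Tests are two-sided, adjusted by Benjamini-Hochberg at a threshold of 0.05, and the fit was tested on simulated data. Ratios used exact permutation tests (scipy 1.17.1). Members, lists and named genes were chosen with earlier results of these data known: all members, up to 4 genes with the lowest adjusted p per list (3 for markers), and the 2 genes most like each tested member. Some results are not reported here. Other named genes were chosen after their values were seen. The 16 alternatives cover pseudocount, filter, scaling, variance prior, weights, block and each library left out.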

Additional observations from a re-analysis of the deposited data

How the results depend on the processing

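Rac2 kept its direction and its call under all 16 alternatives (log2 fold change -0.78 to -0.63, adjusted p 0.00063 to 0.031). Sod2 kept its direction under all 16 and its call under 11. It was lost with no filter on low values (-0.63, adjusted p = 0.084), without the trend (-0.63, adjusted p = 0.0504) and without each control library in turn (range over libraries left out -0.72 to -0.48). The count of members called was then 1, Rac2, and it was 1 to 3 with a library left out, 3 being without Visomitin 1 (Ncf1, Rac2 and Sod2). Ncf1 passed after median-ratio scaling (0.37) and with array weights (0.42), and ran from 0.26 to 0.44 with a library left out. Signs turned for values near 0: Cyba was 0.032 with median-ratio scaling and -0.062 to 0.035 with a library left out, and Cat was 0.023 with median-ratio scaling, 0.024 with quantile normalization, 0.053 with array weights and -0.072 to 0.062 with a library left out. Sod3 was -0.70 with a pseudocount of 0.1, -0.074 with a pseudocount of 5 and -0.39 to -0.16 with a library left out. Cybb, Ncf4 and Sod1 kept direction and stayed unpassed throughout. With a library left out, the log2 difference in the ratio ran from 0.017 to 0.33 for Cybb to Cyba, 0.38 to 0.51 for Ncf1 to Ncf4, -0.87 to -0.57 for Sod2 to Sod1, -1.41 to -0.56 for Sod3 to Sod1 and -0.22 to -0.022 for Cat to Sod1.

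Of all genes tested, 381 passed with no filter and 2835 with array weights, against 835 as reported, and 309 to 981 with a library left out. The split of higher and lower genes was 244 and 591 as reported, 481 and 689 with median-ratio scaling, 559 and 651 with quantile normalization, and 1263 and 1572 with array weights. In the related lists the count for oxidase activation was 1 with median-ratio scaling, 1 with quantile normalization and 3 with array weights (0 to 1 with a library left out). That for copper and manganese handling was 1 after either scaling. That for peroxidases and peroxiredoxins was 4 with array weights (0 to 1 with a library left out). That for peroxisome assembly was 1 after quantile normalization and 2 with array weights (0 to 1). That for oxidases releasing peroxide was 0 with no filter, 3 with array weights and 2, Maoa and Il4i1, with the replicate block (0 to 1). That for transcription factors was 2 with array weights (0 to 2). Leaving out a library lowers the residual degrees of freedom. The causes of these shifts, with a library left out or under another setting, were not tested.

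The labels state no pairing. Residual correlations within a library number were 0.05, 0.02 and 0.17, and 3 of 6 libraries correlated best with their own number. With the library number as a replicate block 1107 genes passed and 2 members, Rac2 (-0.71, adjusted p = 0.0045) and Sod2 (-0.63, adjusted p = 0.015), were called. TPM give no depth, so values below 1 TPM, as for Sod3, have no counting interval.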
